A study of Mus musculus with 6 samples.

Results

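The BCL2 family genes that are not core targets of p53 were examined in sciatic nerves of 3 control and 3 mutant mice at postnatal day 4 (P4). The 9 members, *Bcl2*, *Bcl2l1*, *Mcl1*, *Bak1*, *Bok*, *Bid*, *Bik*, *Bcl2l11* and *Bmf*, were taken by gene symbol from the 59485 genes of the deposited table, and each was found once. Mutants carried HtPA-Cre, in which the promoter of human tissue plasminogen drives Cre recombinase in neural crest (NC) cells, along with floxed *Adar1* alleles (Adar1 fl/fl) and the YFP tracer R26R. Controls are labelled wild-type. By the breeding scheme of the methods, such animals lack Cre but carry R26R and at least 1 floxed allele (Adar1 fl/fl or Adar1 fl/+), so both genotypes share these alleles. Cre acts in Schwann cells (SCs) and other NC derivatives, and the endothelial cells, blood cells and muscle in a nerve sample keep *Adar1*. Each animal gave 1 library, with 50938349 to 78250094 reads on genes.

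BCL2 proteins decide at the outer mitochondrial membrane whether a cell undergoes apoptosis. Guardians (here *Bcl2*, *Bcl2l1*, which encodes BCL-XL, and *Mcl1*) keep the membrane intact, effectors (*Bak1*, *Bok*) form pores that release cytochrome c, and BH3-only proteins (*Bid*, *Bik*, *Bcl2l11*, which encodes BIM, and *Bmf*) carry death signals to both groups. In developing nerves, SCs depend on axonal survival signals, and transcript level is one of several layers of control, since BID is activated by cleavage and MCL1 is a short-lived protein. The comparison asks whether transcripts of this machinery differed between nerves of the 2 genotypes.

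Values are read counts divided by a DESeq2 size factor per library, called normalized read counts here. They were compared as log2(value + 1) with limma over the 25802 genes with a mean of at least 10 in at least 1 genotype, and all 9 members were among them. A gene is said to have risen or fallen where the Benjamini-Hochberg adjusted p over all tested genes was at or under 0.05. The limits stated in the methods, a change of at least 2-fold with a p of 0.05 or less, read here as unadjusted, are given beside it. Errors are SDs over 3 libraries, values in each genotype are listed from replicate 1 to 3, and coordinates are those of mm10.

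The deletion could not be read from the table. *Adar* was at 1133 to 2066 in control-labelled and at 9311 to 11768 in mutant-labelled libraries, which goes against the labels, and 1 value per gene does not separate the floxed segment from the rest. The genotypes are therefore named by their labels. *Xist* was present in 2 control-labelled libraries and 1 mutant-labelled library, so both sexes occur in both genotypes. Of 6 SC markers, 5 fell, and the sum of all 6 was 1130000 to 1490000 in the controls and 47200 to 202000 in the mutants. *Ngfr*, the SC marker that did not pass the test, had a log2 fold change of -0.00. From the values alone, fewer cells of a type and less RNA per cell cannot be told apart in whole nerve. For SCs, the authors reported from electron micrographs at P4 that mutants and controls had similar cell numbers.

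Of the 9 members, 4 rose (*Bid*, *Bok*, *Bcl2l1* and *Mcl1*), 2 fell (*Bmf* and *Bcl2l11*) and 3 did not pass the test (*Bcl2*, *Bak1* and *Bik*). These are 66.7% of the members, whereas 35.0% of all tested genes passed. This share is made up of 19.0% of all tested genes with a higher and 16.0% with a lower value in mutant-labelled libraries. *Bid*, *Bmf* and *Bcl2l11* also met the limits of the methods (33.3% of the members, against 24.2% of all tested genes). In 7 members (77.8%) the 3 values of 1 genotype all lay on the same side of the others, which was so for 49.2% of all tested genes. The median log2 fold change was -0.14 for the members and 0.03 for all tested genes, and the members did not share a direction. Without mutant replicate 2 the median of the members was 0.29, the value of *Bik*, the middle member in that fit.

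**Figure D1:**
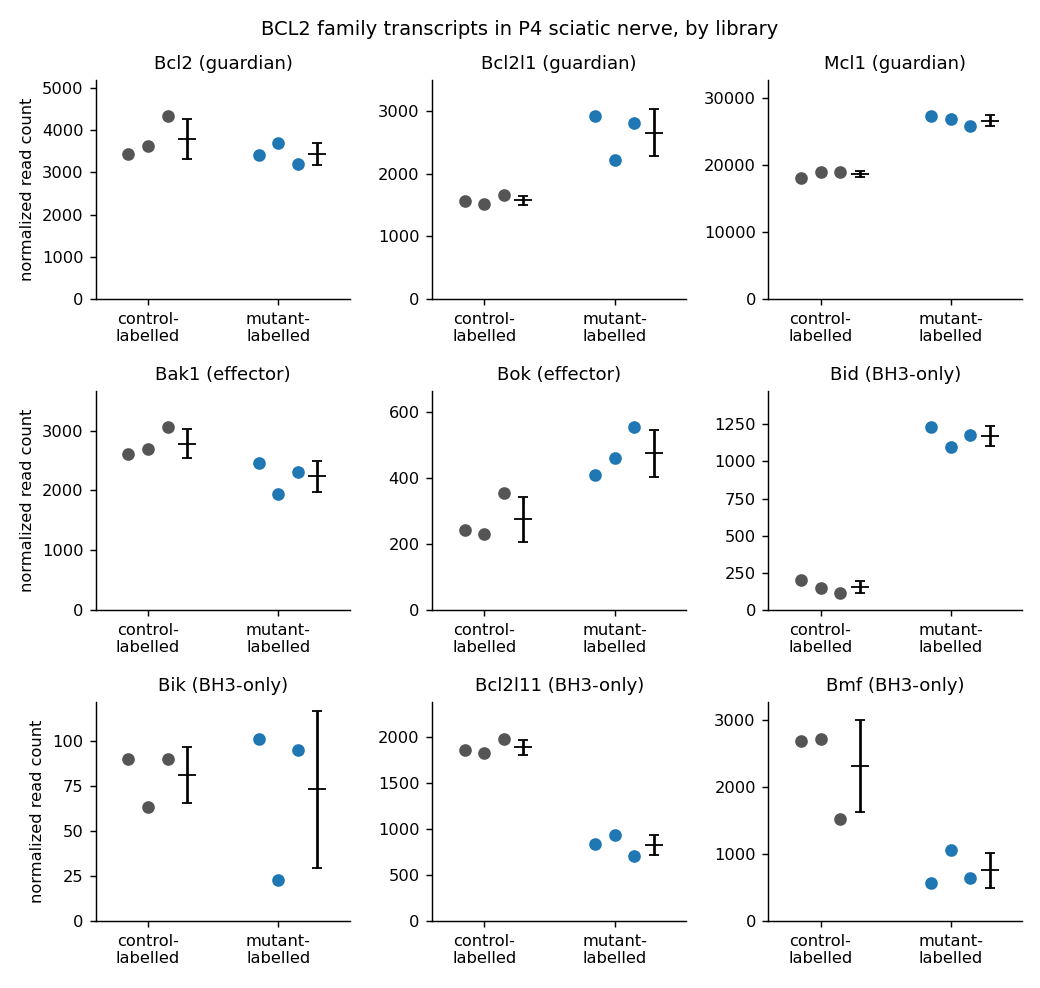
Normalized read count (vertical axes, each starting at 0) of the 9 members in the 3 control-labelled (grey) and 3 mutant-labelled (blue) libraries, replicates 1 to 3 from left to right; bars give the mean and SD. *Bid*, *Bcl2l11* and *Bmf* change most by ratio of means (mutant over control), at 7.49, 0.439 and 0.328, while *Bcl2* and *Bik* overlap.

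Among the guardians, *Bcl2l1* and *Mcl1* rose by less than 2-fold, and *Bcl2* did not pass the test. *Bcl2l1* (GSMG0023716, chromosome 2, 152758732 to 152831728, minus strand) had values of 1561, 1515 and 1654 in control-labelled libraries and 2912, 2223 and 2813 in mutant-labelled ones. Every mutant-labelled value lay above every control, and replicate 2 was the lowest of the mutants. The log2 fold change was 0.74 (standard error 0.13, adjusted p = 0.00267), from a mean of 1577 ± 70.8 to 2649 ± 373. Of 5 genes that overlap *Bcl2l1*, the most abundant, an unnamed gene on its strand, had means of 362 and 369.6, and *Cox4i2* on the opposite strand had means of 82.5 and 115. The other 3 had means of at most 28.7.

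*Mcl1* (GSMG0024663, chromosome 3, 95658721 to 95663176, plus strand), whose product sequesters BIM and BAK, was at 18061, 18936 and 18890.3 in the controls. In mutant-labelled libraries it reached 27244, 26865 and 25743. Both sets were tight, and the smallest mutant-labelled value exceeded the largest control. It rose by 0.51 on the log2 scale (standard error 0.08, adjusted p = 0.00137), a ratio of means of 1.43.

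*Bcl2* (GSMG0001955, chromosome 1, 106538176 to 106714290, minus strand), the founding guardian, was at 3425, 3629 and 4321 in control-labelled and 3409, 3700.2 and 3184 in mutant-labelled libraries. The genotypes overlapped. Its log2 fold change was -0.14, with a 95% interval from -0.41 to 0.13 (adjusted p = 0.386), so a change of 2-fold in either direction lies outside the interval. Its sign turned, to 0.024, when all libraries were set to the same total, a scaling that moved the median of all tested genes from 0.03 to 0.20.

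The effectors differed from each other. *Bok* (GSMG0000611, chromosome 1, 93685575 to 93695769, plus strand), a BAX- and BAK-like protein found largely at the endoplasmic reticulum, had values of 242, 231 and 354 in the controls and 409.5, 458 and 552 in mutant-labelled libraries. Its genotypes did not overlap, with control replicate 3 nearest to the mutants. It rose by 0.80 on the log2 scale (standard error 0.22, adjusted p = 0.0248), but the adjusted p crossed 0.05 in several fits with 1 library less. Without control replicates 1 or 2, the log2 fold change was 0.72 or 0.68 (adjusted p = 0.0683 or 0.0862), and without mutant replicates 2 or 3 it was 0.81 or 0.68 (adjusted p = 0.0571 or 0.0883). Without the trend in limma's variance estimate, the adjusted p was 0.055, and over all alternatives it ran from 0.00864 to 0.0883.

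*Bak1* (GSMG0017283, chromosome 17, 27019810 to 27028627, minus strand), which encodes the pore-forming BAK, was at 2605, 2691 and 3053 in control-labelled libraries. Its values in mutant-labelled libraries were 2455, 1944 and 2311. All 3 were below the lowest control, yet the log2 fold change of -0.32 (95% interval -0.60 to -0.04) had an adjusted p of 0.0756. When all libraries were set to the same 75th percentile it passed, at -0.39 (adjusted p = 0.0339). A gene listed as *Zbtb9* and *Ggnbp1* overlaps *Bak1* on the opposite strand and had means of 221 and 81.5, in the same direction as *Bak1*.

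The BH3-only genes moved in opposite directions and held the 3 largest changes of the members. *Bid* (GSMG0033630, chromosome 6, 120891930 to 120916843, minus strand), whose product links caspase-8 at death receptors to mitochondria, was low in the controls, at 203, 147 and 118, with 93 reads in the lowest. In mutant-labelled libraries it was at 1229, 1097 and 1181, or 1689, 1137 and 1194 reads. All mutant-labelled values lay far above the highest control. The log2 fold change was 2.93 (standard error 0.22, adjusted p = 3.8e-05), from 156 ± 43.3 to 1169 ± 66.6, and by unadjusted p it ranked at 374 of the 25802 tested genes. With 1 library left out at a time the log2 fold change stayed between 2.75 and 3.14. *Bcl2l13* overlaps *Bid* on the opposite strand and had means of 449 and 597. Whether reads were counted by strand is not given in the sources used here, so reads of the shared stretch cannot be assigned.

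*Bcl2l11* (GSMG0021754, chromosome 2, 128126037 to 128162550, plus strand) encodes BIM, which binds all guardians and mediates death after loss of trophic support in many neural cells. Its values were 1850.0, 1821 and 1978 in the controls and 840.1, 930.1 and 710.2 in mutant-labelled libraries. The groups were far apart and each was narrow. It fell by 1.19 on the log2 scale (standard error 0.13, adjusted p = 0.000279), from 1883 ± 83.7 to 827 ± 111.

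*Bmf* (GSMG0023380, chromosome 2, 118528757 to 118549689, minus strand), a BH3-only protein held at the cytoskeleton through dynein light chain 2, was at 2689, 2722 and 1531 in the controls. It was at 575, 1060.4 and 642 in mutant-labelled libraries. The groups did not overlap, but control replicate 3 was well below the other controls and mutant replicate 2 above the other mutants. *Bmf* fell by 1.61 on the log2 scale (standard error 0.29, adjusted p = 0.00306), and its log2 fold change stayed between -1.89 and -1.44 when single libraries were omitted.

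*Bik* (GSMG0013455, chromosome 15, 83526861 to 83544635, plus strand), a BH3-only protein of the endoplasmic reticulum, had few reads. Its values were 89.9, 63.3 and 90.0 in control-labelled and 101, 23.2 and 94.95 in mutant-labelled libraries, the lowest of which held 24 reads. The genotypes overlapped. The log2 fold change of -0.39 had a 95% interval from -1.71 to 0.93 (adjusted p = 0.634), and without mutant replicate 2 it turned to 0.29. A 2-fold fall lies within the interval, and mutant replicate 2 stood apart from the other mutants.

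Promoter sequences are shown for the 3 members past the limits of the methods, to set the letters near their start sites beside their opposite changes. The windows, from RefSeq on GRCm38.p6, the assembly called mm10, run from 250 bases before to 50 bases after an annotated start. The table of promoters held 13 windows for 8 of the 9 members, and *Bik* was not matched. Both strands were searched for an interferon-stimulated response element core (GAAANNGAA), a STAT site (TTCNNNGAA), a FOXO site (GTAAACA), an ATF4-CHOP core (TGATGCAA) and the NF-kB site. These motifs were chosen with the values of the members known. Capitals mark the matches, the FOXO site of *Bcl2l11* and the NF-kB site of *Bmf*, and *Bid* has none. The windows lie at chr6:120916775-120917074 on the minus strand (*Bid*), chr2:128125788-128126087 on the plus strand (*Bcl2l11*, which has 1 other window without a match) and chr2:118544538-118544837 on the minus strand (*Bmf*, which has 2 other windows without a match).
Bid: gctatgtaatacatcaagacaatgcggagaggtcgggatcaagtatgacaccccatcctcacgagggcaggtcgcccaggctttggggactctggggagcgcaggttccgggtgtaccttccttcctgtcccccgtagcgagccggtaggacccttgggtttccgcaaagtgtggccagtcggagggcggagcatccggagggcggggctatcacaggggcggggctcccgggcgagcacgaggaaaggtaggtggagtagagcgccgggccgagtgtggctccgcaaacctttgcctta
Bcl2l11: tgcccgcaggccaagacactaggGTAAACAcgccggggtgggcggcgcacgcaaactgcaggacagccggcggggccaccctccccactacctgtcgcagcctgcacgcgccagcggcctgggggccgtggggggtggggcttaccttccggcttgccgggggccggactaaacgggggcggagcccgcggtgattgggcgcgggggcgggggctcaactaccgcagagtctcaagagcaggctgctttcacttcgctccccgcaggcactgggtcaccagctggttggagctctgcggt
Bmf: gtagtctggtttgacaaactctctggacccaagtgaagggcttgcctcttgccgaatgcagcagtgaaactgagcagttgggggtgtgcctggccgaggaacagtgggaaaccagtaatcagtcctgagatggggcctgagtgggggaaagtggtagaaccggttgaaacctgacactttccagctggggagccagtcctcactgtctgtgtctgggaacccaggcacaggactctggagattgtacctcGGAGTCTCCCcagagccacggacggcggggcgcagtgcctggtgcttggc

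The FOXO match of *Bcl2l11* begins 227 bases before the start site, and 3.65% of all 32851 windows hold this motif. The NF-kB match of *Bmf* lies at the start site, a further one was found in a window of *Bcl2l1*, and 4.51% of all windows hold this motif. No member window held the other 3 motifs, which occur in 8.56%, 8.30% and 0.895% of all windows in the order given above. A match of letters is a description and not a site in use.

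Because reads are scaled per library, ratios between members within a library do not depend on the scaling. Gene lengths differ, so each ratio is compared only between genotypes. The value of *Bid* was 10.98, 8.10 and 5.96% of that of *Bcl2l11* in control-labelled libraries and 146, 118 and 166% in mutant-labelled ones, a 17.6-fold change of the ratio. Relative to *Mcl1*, *Bid* went from 0.624 to 1.13% in the controls to 4.08 to 4.59% in the mutants, a 5.37-fold change of the ratio. *Bcl2l11* relative to *Mcl1* went the other way, from 9.62 to 10.5% in the controls to 2.76 to 3.46% in the mutants, a 3.27-fold change. Relative to *Bcl2l1*, *Bcl2l11* was at 118 to 120.2% in the controls and 25.2 to 41.8% in the mutants, and *Bmf* at 92.6 to 179.7% and 19.8 to 47.7%. Against each of the 3 guardians, the ratios of *Bid* were higher in the mutants without overlap, and those of *Bcl2l11* and *Bmf* lower without overlap. Those of *Bik* were lower without overlap against *Bcl2l1* only (4.18 to 5.76% in the controls, 1.04 to 3.47% in the mutants).

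**Figure D2:**
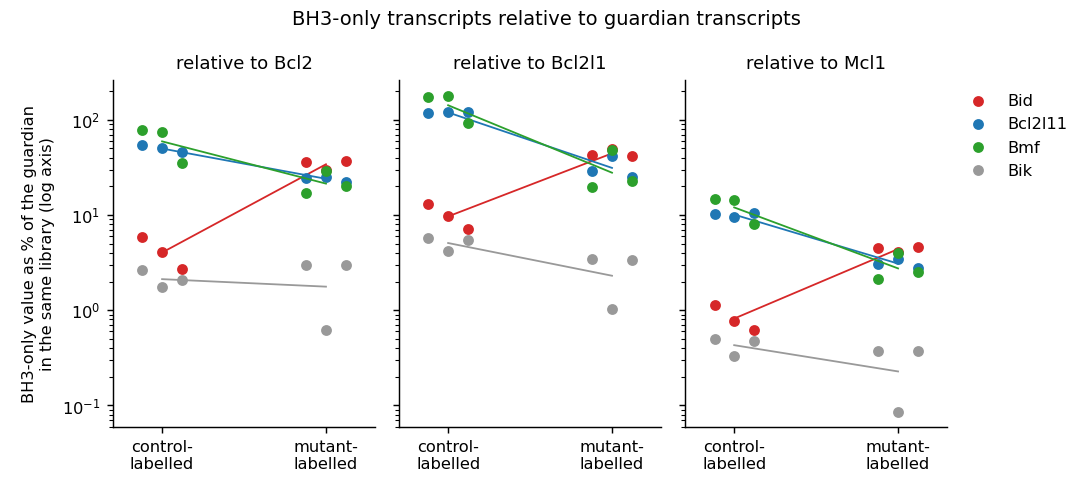
Value of each BH3-only gene as a percentage of *Bcl2*, *Bcl2l1* or *Mcl1* in the same library (log axis) for 3 control-labelled and 3 mutant-labelled libraries; lines join geometric means. Against each guardian, the points of *Bid* are higher and those of *Bcl2l11* and *Bmf* lower in the mutants, and the height of one gene against another also depends on gene length.

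The other genes of the family were taken from a list of 16, of which 15 were tested. Of these, 7 rose (*Bcl2a1a*, *Bcl2a1b*, *Bcl2a1d*, *Bax*, *Bbc3*, *Pmaip1* and *Bcl2l14*), 3 fell (*Bcl2l12*, *Bnip3* and *Bnip3l*) and 5 did not pass the test. Thus 66.7% passed, beside the 35.0% of all tested genes, with a median log2 fold change of 0.54. *Pmaip1*, which encodes the BH3-only protein NOXA that binds MCL1, rose from 47.0 ± 13.9 to 752 ± 65.4 (4.01 on the log2 scale, adjusted p = 2.88e-05). *Bbc3*, which encodes PUMA, rose from 832 ± 106 to 2936 ± 493 (1.81, adjusted p = 7.72e-05). Both are targets of p53, and unlike *Bcl2l11* and *Bmf* they were higher. *Bcl2l12* changed by -0.84 (adjusted p = 0.0013), as did the mitophagy receptor gene *Bnip3l* (-0.84, adjusted p = 0.00209). The 3 *Bcl2a1* genes are near-identical copies of the gene of the guardian A1, and reads can be split among them.

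**Figure D3:**
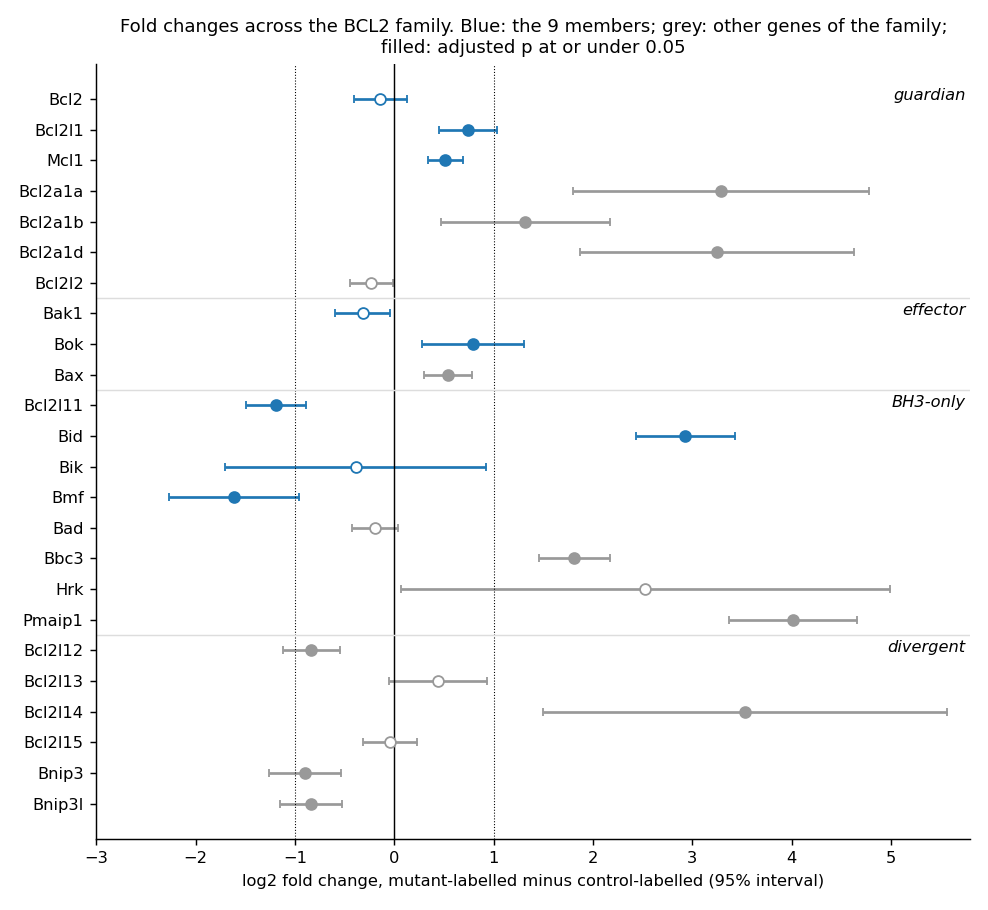
Log2 fold change with its 95% interval (horizontal axis) for the 9 members (blue) and the 15 other tested genes of the family (grey), grouped by role, where divergent stands for family genes outside the other groups; filled points have an adjusted p at or under 0.05 and dotted lines mark 2-fold. BH3-only genes hold changes in both directions, from -1.61 for *Bmf* to 4.01 for *Pmaip1*, and *Bcl2l14*, with no reads in the controls, is at least 3.18-fold higher. The entry plotted as *Bcl2l15* also holds another gene.

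Downstream of the mitochondria, released cytochrome c assembles the apoptosome, which activates caspases. *Casp6* fell from 1071 ± 36.5 to 541 ± 56.9 (-0.99 on the log2 scale, adjusted p = 0.000799), and *Casp9*, the initiator of the apoptosome, from 650.0 ± 98.9 to 391 ± 45.5 (-0.73, adjusted p = 0.0125). *Cycs*, which encodes cytochrome c, rose by 0.46 (adjusted p = 0.0127).

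Of 8 inhibitors of apoptosis and their antagonists, 3 rose and 5 did not pass the test, with a median of 0.17. The share that passed (37.5%) was near the 35.0% of all tested genes. *Birc3*, which encodes the ubiquitin ligase cIAP2, rose from 478 ± 114 to 2535.5 ± 205 (2.43, adjusted p = 3.6e-05) and its neighbor *Birc2* from 1097 ± 56.5 to 1787 ± 165 (0.70, adjusted p = 0.00234). *Naip2*, one of several similar genes and a sensor of bacterial proteins, rose by 1.73 (adjusted p = 0.000785). *Birc6* had a log2 fold change of 0.18 (adjusted p = 0.117). On the scale with equal totals, 5 of the 8 passed in place of 3.

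Among 16 partners and regulators of the members, 5 rose, 4 fell and 7 did not pass the test (56.2% passed, beside 35.0% of all tested genes), with a median of -0.12. *Ddit3*, which encodes CHOP, a stress-induced transcription factor that can raise *Bcl2l11*, rose from 127 ± 12.4 to 1613 ± 257 (3.64, adjusted p = 5.47e-06), whereas *Bcl2l11* itself fell. *Casp8*, the protease that cleaves BID, rose along with *Bid*, from 1307 ± 214 to 4629 ± 59.7 (1.84, adjusted p = 3.37e-05). *Gzmb*, whose product granzyme B also cleaves BID, was without reads in all controls and at 133 ± 69.2 in the mutants, at least 40.0-fold higher when each control is set to a floor of 3 reads. It passed the filter through the mutants alone, so it could be called only as higher. *Dynll1*, a dynein light chain that binds BIM, fell from 39003 ± 131 to 24007 ± 624 (-0.70, adjusted p = 0.000258). *Dynll2*, the partner of BMF and named after its values were seen, fell by 0.37 (adjusted p = 0.0223).

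Markers of other cell types moved with the genotypes, and their part in the changes of the members was not tested. Of the T and NK cell markers, 3 of 5 were higher, with sums of 17.7 to 41.6 in the controls and 86.0 to 247 in the mutants, and *Cd8a* and *Ncr1* had no reads in the controls. Macrophage markers were mixed, with 2 of 5 higher, 1 lower, and a sum of 6600 to 8360 against 4290 to 5600. Erythroid markers were lower in 5 of 6 (44300 to 62600 against 4130 to 12700) and fibroblast and perineurial markers in 2 of 5 (1770000 to 2090000 against 710000 to 1050000). Skeletal muscle markers were higher in 4 of 5, at 5190 to 28300 against 34500 to 268000, the last in mutant replicate 3. Of 5 endothelial markers 1 was higher (0 in edgeR), at sums of 12600 to 19000 against 17200 to 23900. No B cell (4 listed, 62.1 to 115 against 77.2 to 165), neutrophil (5 listed, 3 tested, 15.1 to 153 against 67.3 to 410) or adipocyte marker (4 listed, 5280 to 11200 against 3180 to 23200, the last in mutant replicate 2) passed the test in limma, edgeR or DESeq2, and 0 had an unadjusted p at or under 0.05. Mutant replicate 2 was also the library with the lowest *Bik* and *Bcl2l1* and the highest *Bmf* of the mutants, and its *Adipoq*, an adipocyte marker, was at 4955 against 16.7 and 13.8 in the other mutants. No listed marker was at 0 in all libraries.

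**Figure D4:**
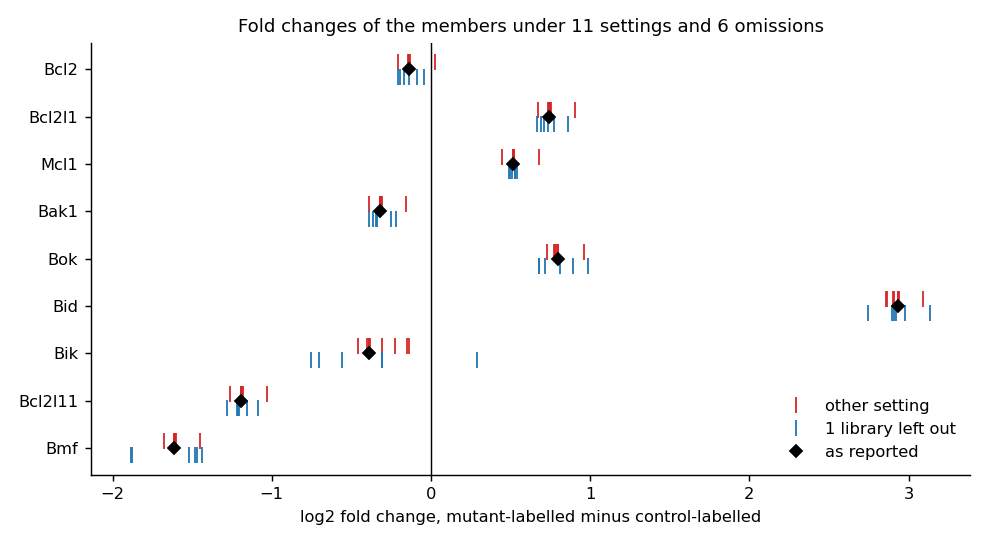
Log2 fold change of each member as reported (black diamonds), under 11 other settings (red) and in the 6 fits that omit 1 library (blue). The signs of *Bid*, *Bok*, *Bcl2l1*, *Mcl1*, *Bak1*, *Bcl2l11* and *Bmf* hold throughout, while *Bcl2* reaches 0.024 and *Bik* 0.29.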

How the data were processed

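Poly-A RNA of P4 sciatic nerves from 3 control and 3 mutant mice was sequenced as oriented, paired-end libraries. The authors mapped reads with STAR 2.4.0 to mm10, counted reads in the constitutive regions of FAST DB genes, so isoforms are pooled, and divided the counts by DESeq2 size factors. The deposited table holds this signal, a normalized read count per gene and library. Dividing by the value of 1 read (0.727 to 1.27) gave whole reads, within 0.01, for 100% of values. In mutant replicate 3 this value (0.989) lies so near 1 that whole reads cannot be told from rounding.

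log2(value + 1) was fitted in limma 3.58.1 (eBayes with trend, R 4.3.3) without covariates, with Benjamini-Hochberg adjustment over the 25802 tested genes. The fit was tested on simulated data. With 3 against 3 libraries, an exact two-sided permutation test cannot go below p = 0.1. Alternatives included edgeR 4.0.16 and DESeq2 1.42.0 on the whole reads and fits that left out each library. The 9 members are all named, and from each list of related genes the 4 with the smallest p. Some genes of the list of apoptosome and caspase genes, and its counts, are not reported here. Members and lists were chosen with earlier results of these data known. Promoters and figures used Python 3.11.15 with pandas 2.3.3 and matplotlib 3.10.9. Floors of 3 reads per library cover counting error only. The expression filter of the methods, which needs intergenic reads, was not applied.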

Additional observations from a re-analysis of the deposited data

How the results depend on the processing

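The members were recomputed under 11 other settings and in 6 fits that omit 1 library each, 153 values in all, of which 145 kept their direction and their side of the adjusted p of 0.05. *Bcl2* turned to 0.024 when all libraries were set to the same total, *Bik* turned to 0.29 without mutant replicate 2 (range over single omissions -0.75 to 0.29), *Bak1* passed in 1 fit and *Bok* missed in 5. The number of members that passed ran from 5 to 7, with 3 past the limits of the methods in every fit. Left-out libraries gave medians of the members from -0.21 to 0.29, the latter without mutant replicate 2, and equal totals gave 0.024 in place of -0.14. These 2 medians are the values of *Bik* and *Bcl2* in those fits, the middle members. Replicate numbers mark different animals, and same-numbered libraries did not deviate together (correlations across genes of -0.06, -0.06 and 0.01, 1 of 3 controls closest to its own number). A fit with the replicate block called 6 members, as without it. *Bik* had the fewest reads of the members in the mutants, with 24 in replicate 2 against 139 and 96.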
